A study of Homo sapiens with 6 samples.

Results

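Metallothioneins, their zinc sensor and zinc transporters were examined in Hep3B cells after knockdown of DAGLA. The 10 genes were MT1E, MT1F, MT1G, MT1M, MT1X, MT2A, MTF1, SLC30A1, SLC30A10 and SLC39A14, and each was found by matching the Ensembl identifiers of the table of 29908 genes to symbols in GENCODE release 29. Of the 10 genes, 9 had a row and 6 reached a mean of at least 0.5 FPKM (reads per kilobase of gene length and per 1000000 reads of the library) over the 6 libraries, which was the limit for testing. MT1F, MT1G and MT1X had a row but lay under this limit, and MT1M was not analysed here.

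Hep3B is an established line of human hepatocellular carcinoma. Hep3B-Con cells (3 libraries, labelled shControl) carried a control lentivirus, and Hep3B-KD cells (3 libraries, labelled shDAGLA) carried a lentivirus with a short hairpin RNA that targets DAGLA, which encodes diacylglycerol lipase alpha. Both groups were infected at a multiplicity of 5 and kept under puromycin to obtain stable populations, so the knockdown rests on 1 hairpin in 1 cell line. The series calls the libraries biological replicates without saying whether they came from separate cultures, and the p-values measure the spread between these libraries only. Between 15861039 and 17572714 reads lay behind each library. DAGLA itself was at 9.28 ± 0.228 FPKM (SD, n = 3) in Hep3B-Con and 4.62 ± 0.164 FPKM (SD, n = 3) in Hep3B-KD.

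Metallothioneins are small cytosolic proteins whose many cysteines bind zinc and copper, and liver cells are among their main producers. MTF1 is the transcription factor that senses free zinc, binds metal response elements in the promoters of metallothionein genes and of SLC30A1, and raises their transcription when zinc is plentiful. Transporters of the SLC30 (ZnT) family move zinc or manganese out of the cytosol, and those of the SLC39 (ZIP) family move metals into it.

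The coding sequences of MT2A, MT1E and MT1G in GENCODE release 29 are printed because reads of such similar genes can be hard to place. Every cysteine codon is in capitals, and 20 of the 61 residues of each protein, 32.8%, are cysteines.
MT2A: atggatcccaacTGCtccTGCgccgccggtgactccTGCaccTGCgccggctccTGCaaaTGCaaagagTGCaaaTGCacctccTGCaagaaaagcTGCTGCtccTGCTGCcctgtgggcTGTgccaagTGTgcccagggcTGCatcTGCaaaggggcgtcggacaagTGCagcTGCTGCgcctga
MT1E: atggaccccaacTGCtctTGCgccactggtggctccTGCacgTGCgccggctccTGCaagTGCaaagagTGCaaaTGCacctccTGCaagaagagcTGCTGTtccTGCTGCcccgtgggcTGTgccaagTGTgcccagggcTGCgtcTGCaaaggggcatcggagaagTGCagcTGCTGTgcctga
MT1G: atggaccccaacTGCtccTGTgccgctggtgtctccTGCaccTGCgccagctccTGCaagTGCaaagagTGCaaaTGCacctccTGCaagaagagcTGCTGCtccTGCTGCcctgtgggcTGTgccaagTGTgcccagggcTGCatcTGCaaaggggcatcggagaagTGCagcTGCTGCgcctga
Over the 186 coding bases, MT2A and MT1G were identical at 95.2% of positions and MT2A and MT1E at 92.5%. Across all 5 metallothionein genes of the set with a row, pairwise identity ran from 88.7% (MT1F and MT1X) to 95.2%. Of all stretches of 50 bases in the transcripts of a gene, 1.58% in MT2A, 1.22% in MT1F, 3.64% in MT1X, 7.10% in MT1E and 16.5% in MT1G also occurred in 1 or more of 19 other metallothionein genes and pseudogenes. These stretches were pooled over all annotated transcripts, long models with introns included, and only exact matches were counted. The shares are therefore not shares of reads and can understate how many reads are hard to place. How the authors treated reads with several matches is not given in the sources used here, so the small values of MT1E and MT1G are less certain than those of MT2A.

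The promoters of MT2A and SLC30A1, the genes with the largest fall and the largest rise among the 6 tested, are printed because both are textbook targets of MTF1. They are the 250 bases before the transcription start given by RefSeq on GRCh38.p14, 5′ to 3′ on the strand of the gene. Capitals mark the core of the metal response element, searched as TGCACNC and TGCGCNC on both strands.
MT2A promoter, chr16:56608334-56608583, plus strand: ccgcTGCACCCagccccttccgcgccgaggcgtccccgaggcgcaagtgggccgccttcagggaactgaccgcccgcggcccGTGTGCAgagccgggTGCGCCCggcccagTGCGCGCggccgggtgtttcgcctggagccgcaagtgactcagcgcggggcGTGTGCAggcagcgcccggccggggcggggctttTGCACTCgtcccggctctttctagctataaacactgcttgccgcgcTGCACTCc
SLC30A1 promoter, chr1:211579162-211579411, minus strand: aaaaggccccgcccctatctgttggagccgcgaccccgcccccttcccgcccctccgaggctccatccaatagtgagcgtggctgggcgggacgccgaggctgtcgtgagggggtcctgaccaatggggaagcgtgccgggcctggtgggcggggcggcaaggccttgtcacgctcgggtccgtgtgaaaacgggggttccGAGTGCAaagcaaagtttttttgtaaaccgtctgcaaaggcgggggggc
The MT2A window held 7 cores and the SLC30A1 window 1, with 1 more core in each gene within the 50 bases after the start. The RefSeq start of MT2A lies inside the longer gene model of GENCODE release 29, so that model takes in the MT2A window. For SLC30A1 that model begins at 211578742 on the minus strand, so the RefSeq start and the window lie outside it. The windows are thus placed differently to the models on which reads were counted. The corresponding window of MT1X held 4 cores, and the windows of MTF1 and SLC30A10 held 0. Among the 35116 RefSeq promoters of this length, 24.8% held at least 1 core, 0.37% at least 4 and 0.0513% at least 6. These matches describe the letters only and are no evidence of binding.

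In Hep3B-KD the metallothionein MT2A fell to less than the lowest control value, and the zinc exporter SLC30A1 rose. MT2A went from 10.2 to 4.18 FPKM and SLC30A1 from 6.21 to 15.2 FPKM, and these were the only genes of the set with an adjusted p under 0.05 and a fold change of at least 2. MTF1, SLC30A10 and SLC39A14 rose by smaller steps, and MT1E did not pass the test. At an adjusted p under 0.05, 4 of the 6 tested genes were higher and 1 was lower. Of all 14221 genes tested, 36.1% were higher and 23.8% lower by the same rule, 59.9% in all, so a call alone does not set these genes apart. With the fold change of at least 2 added, 5.89% of all genes were higher and 2.94% lower, 8.83% in all. The median log2 fold change was 0.18 for the 6 genes and 0.11 for all genes tested. The values of Hep3B-KD and Hep3B-Con did not overlap for 5 of the 6 genes, against 66.9% of all genes tested.

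**Figure D1:**
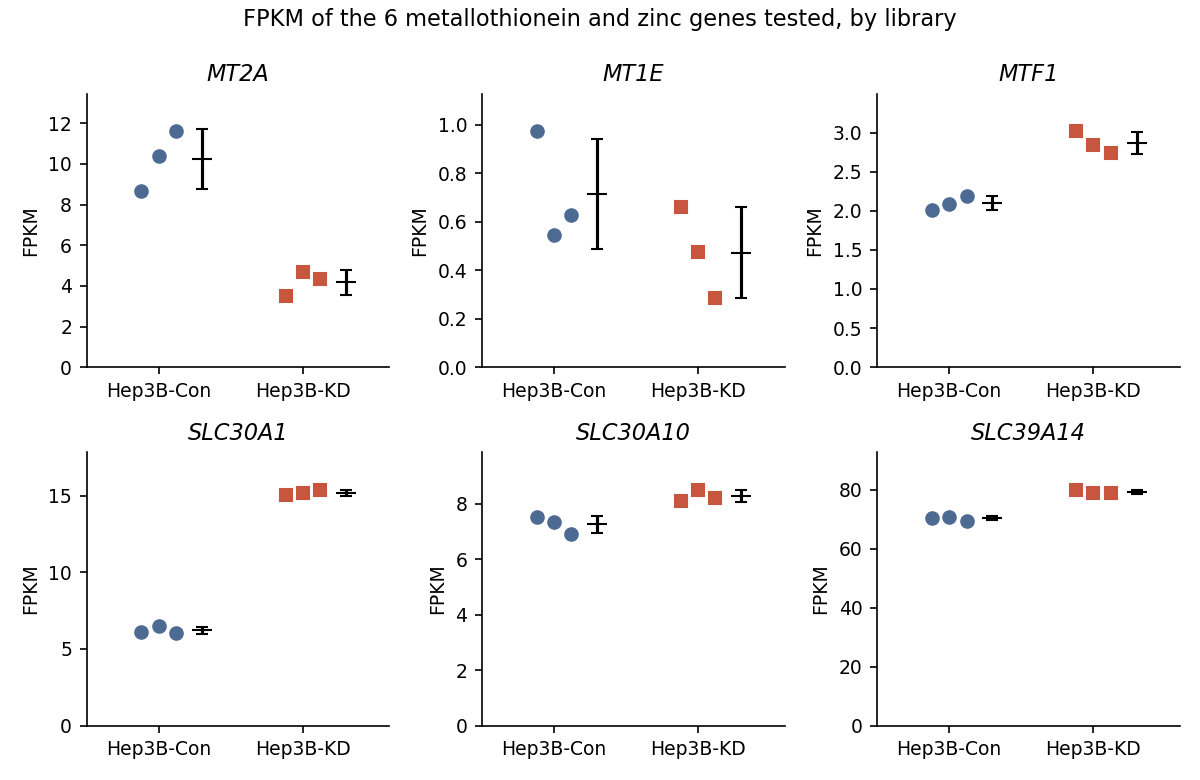
FPKM of the 6 genes tested in each library, with blue circles for Hep3B-Con, red squares for Hep3B-KD, and a bar at the mean ± SD of each group (n = 3); every axis starts at 0. MT2A is lower in all 3 Hep3B-KD libraries, SLC30A1 lies at 15.0 to 15.4 FPKM in them and at 6.03 to 6.47 FPKM in Hep3B-Con, and the MT1E values of the groups overlap.

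**Figure D2:**
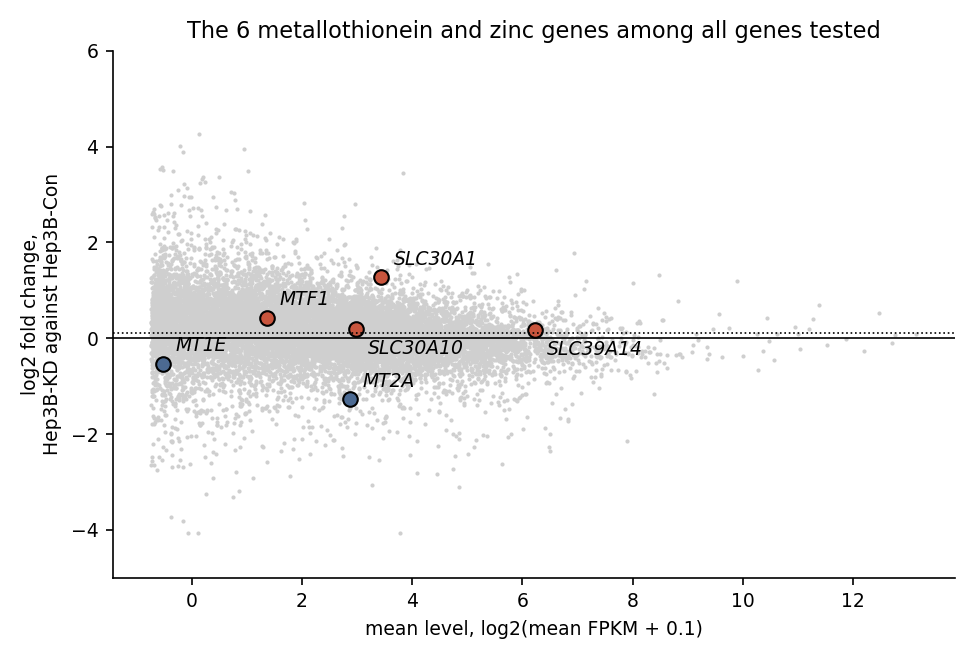
Log2 fold change (Hep3B-KD against Hep3B-Con) against mean level, log2(mean FPKM + 0.1), with all 14221 genes tested in grey and the 6 genes named; red marks a positive and blue a negative change, and the dotted line is the median change of all genes, 0.11. SLC30A1 at 1.28 and MT2A at -1.27 lie near the edges of the cloud at their level, and SLC30A10 and SLC39A14 lie close to the dotted line.

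MT2A, the most abundant metallothionein in these cells, had 8.67, 10.4 and 11.6 FPKM in the Hep3B-Con libraries and 3.49, 4.70 and 4.36 FPKM in the Hep3B-KD libraries. The highest Hep3B-KD value was well below the lowest control value. MT2A (ENSG00000125148, chromosome 16 of GRCh38, 56608199 to 56609497, plus strand) fell by 1.27 on the log2 scale (standard error 0.141, 95% interval -1.61 to -0.93, adjusted p = 0.000278, limma with Benjamini-Hochberg adjustment). On the FPKM means it was 2.44-fold lower, so that its mean fell by 59.1%. Reads numbered 198 to 251 in Hep3B-Con and 72 to 98 in Hep3B-KD, and the SD between the control libraries was 1.48 FPKM. Its fall was the 312th largest of the 14221. The exact two-sided permutation test gave p = 0.1, the smallest that 3 libraries against 3 allow, and the same p held for every gene whose groups did not overlap. In cultured cells measured in bulk, fewer cells that express a gene and less RNA per cell cannot be told apart.

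MT1E (ENSG00000169715, chromosome 16, 56625475 to 56627112, plus strand), a second metallothionein of the same cluster, had 0.974, 0.547 and 0.628 FPKM in Hep3B-Con and 0.659, 0.473 and 0.286 FPKM in Hep3B-KD. The groups overlapped, and only 10 to 18 reads in Hep3B-Con and 5 to 11 in Hep3B-KD lay behind the values. MT1E met the limit for testing of 0.5 FPKM only through Hep3B-Con, with means of 0.716 FPKM there and 0.473 FPKM in Hep3B-KD. The change was -0.53 on the log2 scale (standard error 0.343, adjusted p = 0.226, limma; exact permutation p = 0.3), and its 95% interval of -1.35 to 0.29 included both a fall as large as that of MT2A and no change.

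The other metallothioneins were close to the limit of counting. MT1G had 3, 1 and 4 reads in Hep3B-Con and 1, 0 and 0 in Hep3B-KD. MT1F had 1 read in 1 control library and 0 in the rest. MT1X had 1 read in each of 2 control libraries, 1 in 1 Hep3B-KD library and 0 elsewhere, and part of its exons, 18.1% of their length, is shared with an overlapping transcript on the same strand. A limit of 3 reads corresponds to 0.228 to 0.252 FPKM for MT1G, 0.0904 to 0.1 FPKM for MT1F and 0.0963 to 0.107 FPKM for MT1X, and these limits cover counting error only. These 3 genes were not tested, and no fold is given. Of 14 further metallothionein genes and pseudogenes, only MT1H, MT1P1 and MT1XP1 had a row, with at most 5 reads in any library.

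Summed over the 8 metallothionein genes and pseudogenes with a row, 225, 252 and 269 reads were found in Hep3B-Con and 85, 108 and 99 in Hep3B-KD. This is 12.8 to 16.2 reads per 1000000 in the controls and 5.36 to 6.72 per 1000000 after knockdown. MT2A held 88.0% to 93.3% of the metallothionein reads in Hep3B-Con and 84.7% to 94.9% in Hep3B-KD. The ratio of MT2A to MT1E in FPKM was 15.5 ± 5.69 in Hep3B-Con and 10.1 ± 4.97 in Hep3B-KD (SD, n = 3), a difference within the spread of the libraries (exact permutation p = 0.3).

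**Figure D3:**
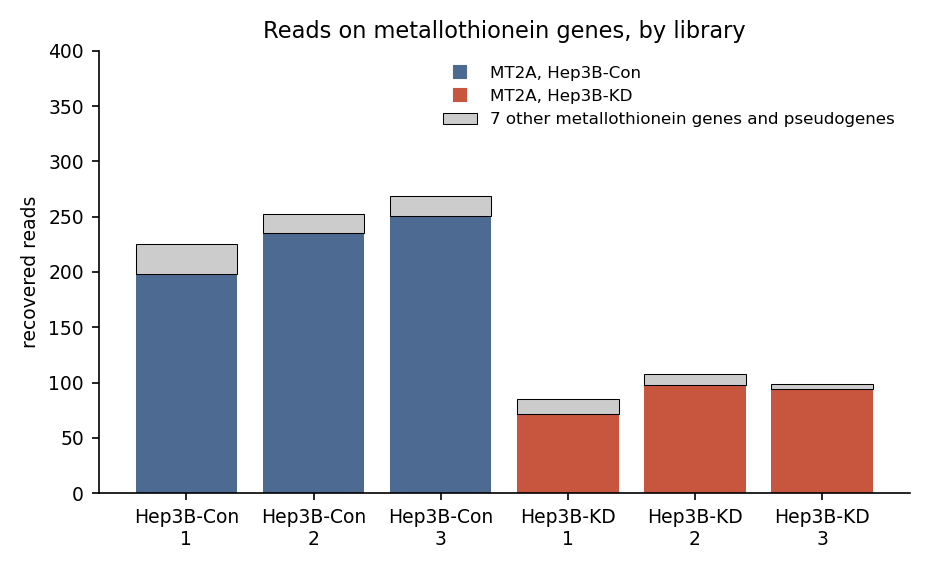
Recovered reads on metallothionein genes in each library, stacked, with MT2A in blue (Hep3B-Con) or red (Hep3B-KD) and the 7 other genes and pseudogenes in grey; the axis starts at 0. The stacks reach 225 to 269 reads in Hep3B-Con and 85 to 108 in Hep3B-KD, and MT2A makes up most of each.

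MTF1 (ENSG00000188786, chromosome 1, 37809567 to 37859620, minus strand), the zinc sensor, had 2.01, 2.09 and 2.19 FPKM in Hep3B-Con and 3.02, 2.84 and 2.73 FPKM in Hep3B-KD. All knockdown values were above all control values. Its change was 0.43 on the log2 scale (standard error 0.0713, 95% interval 0.26 to 0.60, adjusted p = 0.00193, limma), a 1.36-fold rise, with 284 to 293 reads in Hep3B-Con and 364 to 384 in Hep3B-KD. With quantile normalization the change was 0.21 (adjusted p = 0.0393). MTF1 mRNA was thus higher in the libraries in which MT2A mRNA was lower.

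SLC30A1 (ENSG00000170385, chromosome 1, 211571568 to 211578742, minus strand) encodes ZnT1, the zinc exporter of the plasma membrane. It had 6.13, 6.47 and 6.03 FPKM in Hep3B-Con and 15.0, 15.1 and 15.4 FPKM in Hep3B-KD. Libraries of a group differed by little, with an SD of 0.234 FPKM in Hep3B-Con and 0.184 FPKM in Hep3B-KD. The rise was 1.28 on the log2 scale (standard error 0.0386, 95% interval 1.18 to 1.37, adjusted p = 1.23e-06, limma), a 2.44-fold rise, and it was the 525th largest rise of the 14221 genes. Between 549 and 616 reads in Hep3B-Con and between 1304 and 1397 in Hep3B-KD lay behind it, and no other gene of the annotation shares its exons.

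SLC30A10 (ENSG00000196660, chromosome 1, 219685427 to 219958647, minus strand) encodes a transporter of the same family that exports manganese. It had 7.52, 7.36 and 6.91 FPKM in Hep3B-Con and 8.11, 8.51 and 8.23 FPKM in Hep3B-KD. The groups did not overlap, but the rise of 0.19 on the log2 scale (standard error 0.0453, 95% interval 0.08 to 0.30, adjusted p = 0.0105, limma) lay close to the median of all genes, 0.11. After centring of the libraries on their median log ratios the change was 0.08 (adjusted p = 0.153), and with quantile normalization 0.10 (adjusted p = 0.107), so that the call was lost under both.

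SLC39A14 (ENSG00000104635, chromosome 8, 22367249 to 22434129, plus strand) encodes ZIP14, an importer of zinc, manganese and iron that is abundant in liver. It had 70.3, 70.8 and 69.5 FPKM in Hep3B-Con and 79.9, 78.7 and 78.8 FPKM in Hep3B-KD, and in the controls it lay above 96.3% of the genes tested. Between 8032 and 9081 reads in each library gave it the smallest standard error of the set. The rise was 0.17 on the log2 scale (standard error 0.0175, 95% interval 0.13 to 0.21, adjusted p = 0.000184, limma), a 1.13-fold rise. It was 0.07 (adjusted p = 0.0124) with median centring and 0.32 (adjusted p = 2.66e-05) with quantile normalization.

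The order of the levels in FPKM changed between the groups. In Hep3B-Con it was SLC39A14, MT2A, SLC30A10, SLC30A1, MTF1 and MT1E from high to low, and in Hep3B-KD it was SLC39A14, SLC30A1, SLC30A10, MT2A, MTF1 and MT1E. In both groups the values of neighbours in this order did not overlap between libraries. FPKM divides by the counted gene length, which for MT2A is 1299 bases with introns, while its transcript MT2A-201 has 786 bases. The order between genes therefore holds for the counted lengths only. Within each library the ratio of SLC30A1 to MT2A was 0.707, 0.622 and 0.519 in Hep3B-Con and 4.30, 3.22 and 3.53 in Hep3B-KD, a difference of 2.58 on the log2 scale. SLC30A1 also rose relative to its relative SLC30A10, from a ratio of 0.856 ± 0.0346 to 1.83 ± 0.0483, and relative to MTF1, from 2.96 ± 0.191 to 5.31 ± 0.324 (SD, n = 3). The exact permutation test gave p = 0.1 for each of these 3 ratios, and 5 ratios were tested in all, so none can pass after adjustment. A factor that scales a whole library does not change these ratios, but quantile normalization can.

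Of the 10 genes of the SLC30 family, 9 had a row and 6 were tested. At an adjusted p under 0.05, 4 were higher in Hep3B-KD, none was lower, beside 36.1% and 23.8% of all genes. The median log2 fold change was 0.16 against 0.11 for all genes. SLC30A6, a zinc transporter of the Golgi apparatus, rose from 9.13 ± 0.460 to 10.6 ± 0.302 FPKM (SD, n = 3; log2 fold change 0.21, adjusted p = 0.00731, limma). SLC30A9 rose from 21.5 to 23.6 FPKM (log2 fold change 0.13, adjusted p = 0.00551, limma). SLC30A5 and SLC30A7, which load zinc into the secretory pathway, were not called, with log2 fold changes of 0.14 and 0.08. With median centring, when 28.6% of all genes were higher and 30.3% lower, SLC30A1 alone of this family was called.

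Of the 14 genes of the SLC39 family, 13 had a row and 12 were tested, with 3 higher and 4 lower, beside 36.1% and 23.8% of all genes. The median change of the family was -0.14 on the log2 scale. With median centring 3 were higher and 7 lower, beside 28.6% and 30.3% of all genes. SLC39A7, which encodes ZIP7, the channel that releases zinc from the endoplasmic reticulum, was the most abundant of the family in Hep3B-Con. It had 120, 122 and 125 FPKM in Hep3B-Con and 70.4, 68.1 and 67.3 FPKM in Hep3B-KD, so that its mean fell by 43.9% and the groups did not overlap (log2 fold change -0.83, standard error 0.0240, adjusted p = 9.92e-07, limma). The ratio of SLC39A14 to SLC39A7 in FPKM went from 0.574 ± 0.0145 to 1.15 ± 0.0179 (SD, n = 3, exact permutation p = 0.1). With the counted gene lengths, the plasma membrane importer was thus the lower of the pair in Hep3B-Con and the higher in Hep3B-KD.

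The other importers moved in both directions. SLC39A4, the importer that takes up dietary zinc, was lower, at 1.80 ± 0.0667 FPKM in Hep3B-Con and 1.04 ± 0.0505 FPKM in Hep3B-KD (SD, n = 3; log2 fold change -0.73, adjusted p = 0.000673, limma). SLC39A13 and SLC39A5 fell by 0.33 and 0.30 on the log2 scale (adjusted p = 0.00187 and 0.0166, limma). SLC39A8, the closest relative of SLC39A14, rose from 3.97 to 5.09 FPKM, and SLC39A9 from 13.3 to 17.0 FPKM, and both changed by 0.35 on the log2 scale (adjusted p = 0.00783 and 5.19e-05, limma). With quantile normalization SLC39A8 was not called (adjusted p = 0.0654), and with an ordinary linear model per gene SLC39A5 was not (adjusted p = 0.0624). SLC39A3 ranged from 5.21 to 9.40 FPKM within Hep3B-Con alone and was not called (adjusted p = 0.0806), but passed at 0.0429 without Hep3B-Con replicate 2. SLC39A10 and SLC39A11 were not called either, and passed at 0.0292 without Hep3B-Con replicate 3 and at 0.0464 without Hep3B-KD replicate 1. With all libraries kept, SLC39A3 passed with median centring, quantile normalization and limma voom on reads (adjusted p = 0.0469, 0.0363 and 0.00429). SLC39A11 passed with the same settings (adjusted p = 0.0252, 0.0198 and 0.0308). SLC39A10 passed with median centring and quantile normalization (adjusted p = 0.00408 and 0.0265). SLC39A6, at 26.3 FPKM in Hep3B-Con and 27.4 FPKM in Hep3B-KD, was not called (adjusted p = 0.0688, limma). It passed as higher with libraries rescaled to the same sum, quantile normalization and an ordinary linear model per gene (adjusted p = 0.0206, 0.00371 and 0.0388).

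**Figure D4:**
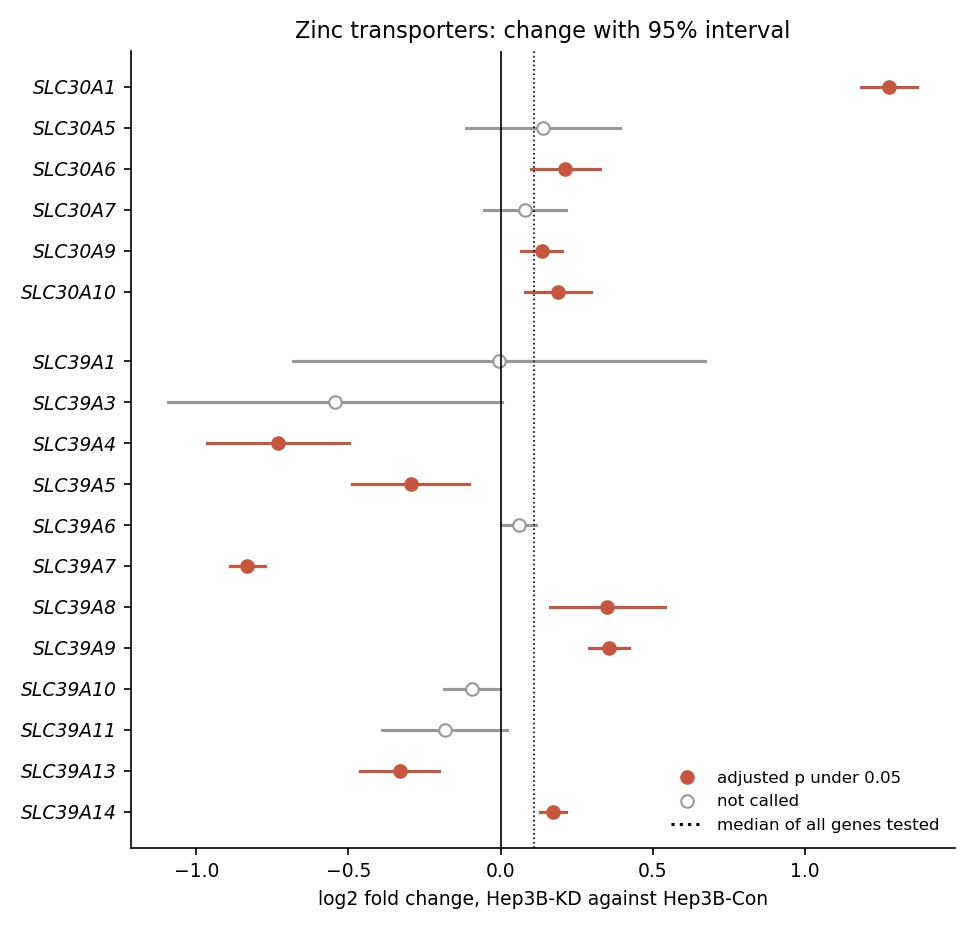
Log2 fold change (Hep3B-KD against Hep3B-Con, on log2(FPKM + 0.1)) of the 6 SLC30 and 12 SLC39 genes tested, with 95% intervals from limma; filled circles have an adjusted p under 0.05, open circles do not, and the dotted line is the median of all genes, 0.11. SLC30A1 at 1.28 stands to the right of all others, SLC39A7 at -0.83 and SLC39A4 at -0.73 lie farthest to the left, and SLC39A1 and SLC39A3 have the widest intervals.

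Among 6 regulators of metal and stress responses, all tested, 2 were higher and 2 lower, beside 36.1% and 23.8% of all genes, and the median change was -0.03 on the log2 scale. Besides MTF1, the higher gene was MTF2, a Polycomb protein that shares a name with the zinc sensor, which rose from 7.15 to 10.7 FPKM (log2 fold change 0.57, adjusted p = 2.04e-05, limma). NFE2L2, the oxidative stress factor NRF2, fell from 31.6 to 25.4 FPKM (log2 fold change -0.32, adjusted p = 0.000164, limma). NR3C1, the glucocorticoid receptor and an inducer of MT2A, fell by 0.23 on the log2 scale (adjusted p = 0.00992, limma). KEAP1 and HSF1 were not called, but with median centring KEAP1 was lower (log2 fold change -0.17, adjusted p = 0.00302, limma).

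MT2A lies in the metallothionein cluster of chromosome 16, and the genes on either side of the cluster were read in the same fit. Of 9 neighbours, 5 were tested, 4 were lower and none was higher, beside 23.8% lower and 36.1% higher among all genes. Their median log2 fold change was -0.41. HERPUD1, a component of the degradation machinery of the endoplasmic reticulum whose midpoint lies 329.6 kb from that of MT2A, had 18.3, 18.2 and 18.7 FPKM in Hep3B-Con and 7.52, 8.03 and 7.53 FPKM in Hep3B-KD. Its log2 fold change of -1.25 (adjusted p = 1.12e-06, limma) was close to the -1.27 of MT2A. NUDT21, a subunit of a pre-mRNA cleavage factor, fell from 21.9 to 13.4 FPKM (log2 fold change -0.71, adjusted p = 3.52e-05, limma). OGFOD1 and NUP93 fell by 0.41 and 0.38 on the log2 scale. BBS2, the closest of the tested neighbours, was not called, at 0.18 (adjusted p = 0.0973, limma; 0.0395 without the trend of the variance).

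**Figure D5:**
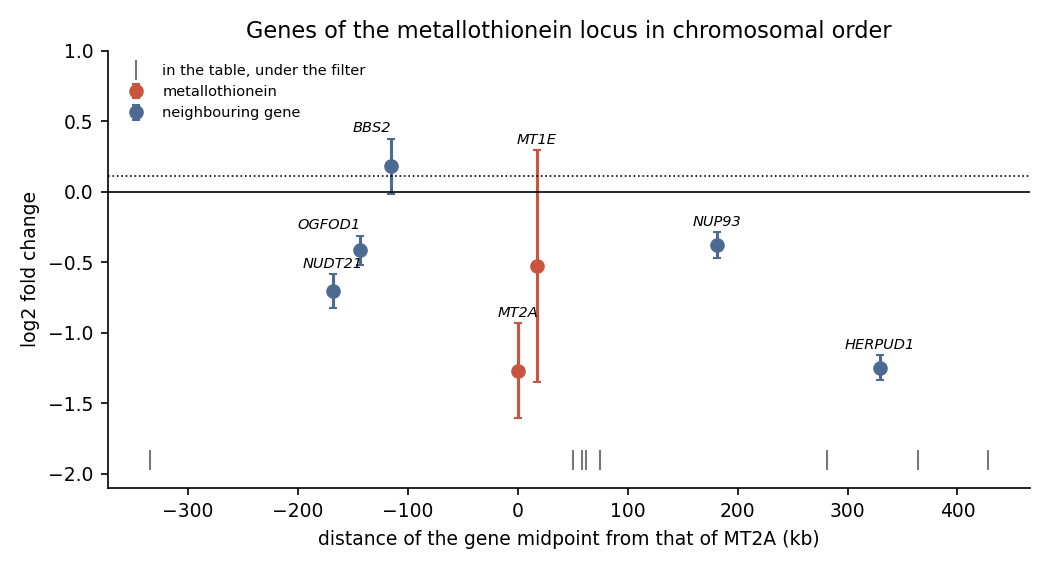
Log2 fold change (Hep3B-KD against Hep3B-Con) with 95% intervals from limma for metallothioneins (red) and neighbouring genes (blue) by the distance of each gene's midpoint from that of MT2A, in kb; grey ticks mark genes with a row that were not tested, and the dotted line is the median of all genes, 0.11. HERPUD1 at -1.25 and MT2A at -1.27 are lowest, the other called neighbours lie between -0.71 and -0.38, and BBS2 lies at 0.18.

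Some measures moved with the groups. The 12 hepatocyte markers, ALB and APOA2 among them, summed to between 5444 and 5571 FPKM in Hep3B-Con and between 8694 and 8824 FPKM in Hep3B-KD, with 10 of the 12 higher and 2 lower (FGB and HNF4A), beside 36.1% and 23.8% of all genes. Markers of blood, endothelial and stromal cells with a row numbered 9, of which 8 had a mean under 1 FPKM, and their sum was 2.96 to 4.17 FPKM in Hep3B-Con and 3.71 to 4.64 FPKM in Hep3B-KD. Most of this sum was LYZ, at 2.63 and 3.51 FPKM on average, and COL1A1 was the only one called, falling from 0.745 to 0.271 FPKM (log2 fold change -1.20, adjusted p = 0.00720, limma). COL1A1 met the limit for testing only through its Hep3B-Con values, with a mean of 0.508 FPKM over the 6 libraries. LYZ was not called, but passed with limma voom on reads and without Hep3B-Con replicate 2 (adjusted p = 0.0370 and 0.0318). A match to the 7-base seed of the shDAGLA guide (site GCCTTCA) was found in the longest 3′ untranslated region of MTF1, SLC39A7, SLC30A7, NR3C1 and NUDT21, and of the markers HNF4A, TF and LYZ, but not of MT2A, MT1E, SLC30A1, SLC30A10 or SLC39A14, against 14.55% of the 11189 tested genes with such a region. The part of any of these in the changes above was not tested.

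Genes were compared by Pearson correlation with the mean log2(FPKM + 0.1) of MT1E and MT2A over the 6 libraries. Both genes weigh the same in this mean, though MT1E had only 5 to 18 reads in each library and met the limit for testing only through Hep3B-Con. Most alike were GSE1 (r = 0.999), SNHG1 (r = 0.997), RNF41 (r = 0.996), SRPRB (r = 0.996) and SGO1 (r = 0.996). The 6 libraries form 2 groups, and 1112 of the 14090 genes compared reached r of at least 0.95. After each group was centred on its own mean, the most alike were AC040169.1 (r = 0.999), AL445222.1, AC104521.1 (both r = 0.996), L3MBTL2 (r = 0.994) and TMEM43 (r = 0.993). In each group MT1E was highest in replicate 1, where MT2A was lowest, so the names after centring do not stand for MT2A. Both sets of names are descriptions of 6 libraries, without a test.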

How the data were processed

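RNA sequencing of 6 Hep3B libraries was used, 3 of Hep3B-Con and 3 of Hep3B-KD cells, grouped by their labels. Per the labels and the study's methods, TruSeq mRNA libraries were sequenced on an Illumina HiSeq. The submitters' processing notes name TopHat2 2.0.12, Bowtie2 2.0.6 and GRCh37. The counting program and its use of strand are not given in the sources used here. The authors deposited FPKM values in 1 table of 29908 Ensembl genes, with 0 other value columns. Multiplied by exon lengths of GENCODE release 29 (GRCh38) and library totals, 100% of the values gave whole reads within 0.01, so lengths follow that annotation rather than GRCh37. All coordinates are those of GENCODE release 29, or of RefSeq for promoters. The counted length of MT2A is its whole span of 1299 bases, introns included, since release 29 lists a retained intron.

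The 14221 genes whose mean reached 0.5 FPKM were fitted on log2(FPKM + 0.1) with limma 3.58.1 (lmFit, eBayes with trend) in R 4.3.3 and Benjamini-Hochberg adjustment over all genes tested. This scale understates changes of low genes. Single values and ratios were compared with exact two-sided permutation tests. Named were the 10 genes, the genes of the lists (metallothioneins, SLC30, SLC39, regulators, copper handling, locus neighbours, cell markers), DAGLA, and the 5 most alike genes by each of 2 correlations. The genes and lists were chosen with earlier results of these data known. One listed neighbour of the locus is not reported here. Promoter windows were read for 5 of the 10 genes. Genes of chromosome 8, SLC39A14 among them, were left out of this step. Alternatives were other filters, pseudocounts, scalings, variance models, voom on recovered reads, the replicate number as a block and each library left out. Other steps used Python 3.11.15, pandas 2.3.3, numpy 2.4.6, scipy 1.17.1 and matplotlib 3.10.9.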

Additional observations from a re-analysis of the deposited data

How the results depend on the processing

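The 6 tested genes were refitted under 17 alternatives, 101 fits in all, because MT1E could not be fitted with a minimum mean of 1 FPKM. In 99 fits the direction and the side of the threshold of the main result were unchanged, and none reversed. The other 2 were SLC30A10 under median centring, with a change of 0.0846, and under quantile normalization, with 0.103 (adjusted p = 0.153 and 0.107). These scalings moved the median of all genes by -0.10 and -0.09 (log2). MT2A ranged from -1.38 to -1.11, SLC30A1 from 1.17 to 1.31, MTF1 from 0.21 to 0.46, SLC39A14 from 0.07 to 0.32 and MT1E from -0.89 to -0.22. Leaving out each library in turn gave -1.38 to -1.15 for MT2A and 1.26 to 1.31 for SLC30A1. All genes called numbered 7771 to 8975, against 8521 in the main result, with 4064 higher and 4308 lower under median centring against 5133 and 3388. With the fold change of at least 2 they numbered 984 to 1715 against 1256, except 503 with a pseudocount of 1.

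Samples with the same replicate number did not deviate together (correlations of -0.01, -0.07 and -0.0011), and no sample correlated best with its own number, so the numbers are taken as names only. With the replicate number as a block, 7919 genes were called, with 4 of the 6 genes higher and 1 lower as without it. Among the other listed genes the block ended the calls of SLC39A5, ATP7A and COMMD1 (adjusted p = 0.0534, 0.0911 and 0.0761). The block adjusted p was 0.000342 for MT2A and 0.0283 for SLC30A10.

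MT1E rested on few reads and passed the filter on low values only through Hep3B-Con, and MT1F, MT1G and MT1X lay under that filter.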

Other observations

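Metallothioneins also bind copper, and the genes of copper handling were read from the same fit. Of 14 listed genes, 13 had a row and 11 were tested, with 4 higher and 3 lower. Their median change was 0.07 on the log2 scale, and the calls compare with 36.1% higher and 23.8% lower among all genes. ATP7B, the copper pump of hepatocytes, had 3.46, 3.22 and 3.42 FPKM in Hep3B-Con and 7.81, 7.34 and 7.42 FPKM in Hep3B-KD. All knockdown values were above all control values, and the rise was 1.14 on the log2 scale (standard error 0.0501, adjusted p = 5.09e-06, limma). ATOX1, the chaperone that hands copper to ATP7B, rose from 2.98 ± 0.127 to 4.53 ± 0.381 FPKM (SD, n = 3; log2 fold change 0.59, adjusted p = 0.000571, limma).

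ATP7A, the copper pump of most other tissues, went the other way from ATP7B, from 1.44 to 1.14 FPKM (log2 fold change -0.31, adjusted p = 0.0473, limma). SCO1, which delivers copper to cytochrome c oxidase, fell from 8.14 to 4.35 FPKM (log2 fold change -0.89, adjusted p = 7.98e-06, limma). SLC31A1, the copper importer CTR1, fell by 0.18 on the log2 scale (adjusted p = 0.00592, limma). The 3′ untranslated regions of ATP7A and SCO1 hold the match to the hairpin's seed, and its part was not tested. The call of ATP7A was lost whichever library was left out (adjusted p = 0.0533 to 0.143). With all libraries kept it was also lost with no filter, a minimum mean of 1 FPKM and libraries rescaled to the same sum (adjusted p = 0.102, 0.0658 and 0.0627). COMMD1 and CCS had log2 fold changes of 0.32 and 0.16 (adjusted p = 0.0421 and 0.00874, limma), and with median centring neither was called (adjusted p = 0.134 and 0.215). COMMD1 was also lost when any library but Hep3B-Con replicate 2 was left out (0.0572 to 0.121). With all libraries kept, its call was further lost with no filter, quantile normalization, no trend of the variance and an ordinary linear model per gene (adjusted p = 0.0867, 0.228, 0.0660 and 0.111). COX17, COX11, SOD1 and CP were not called. Without Hep3B-KD replicate 3, COX17 and COX11 passed (adjusted p = 0.0471 and 0.0250), and SOD1 passed with median centring (0.00720).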
